A study of Oryza sativa with 8 samples.

Results

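Ascorbate peroxidases (APX) reduce hydrogen peroxide to water with ascorbate as the electron donor, and the oxidized ascorbate is then regenerated by the ascorbate-glutathione cycle. The members described here are APX1, APX2 and APX6 of rice (Oryza sativa), which were found by symbol through the probe that lies in that single RefSeq gene, with the brightest probe taken for each gene. They are 3 of the 14661 genes that had a probe in that gene alone, and 3 of the 8 APX genes of the annotation. APX1 and APX2 are the cytosolic forms of rice, and APX6 is one of the organellar forms. In the anther, hydrogen peroxide and other reactive oxygen species are known to take part in the programmed death of the tapetum, the cell layer that feeds the microspores.

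Each of 4 lines was represented by 2 biological replicates on one-colour rice gene arrays, 8 arrays in all. The lines were the fertile maintainer Meixiang B (MB) and the cytoplasmic male-sterile (CMS) lines D62-A/MB, ZS97-A/MB and XQZ-A/MB, which carry sterility-inducing cytoplasm of the D, WA and DA type and had been backcrossed repeatedly to MB. By the methods' marker typing the nuclear genome of MB was not fully recovered, more completely in XQZ-A/MB than in the other CMS lines, so cytoplasm and remaining foreign nuclear segments cannot be told apart. Male sterility was of the sporophytic type in these CMS lines. The material was at the uninucleate microspore stage, and the tissue was labelled as young panicle but described in the methods as anthers. The arrays are labelled D62A, ZhenShan97A, XQZ-A and Meixiang B, and the names of the backcrossed lines are those of the study. Arrays were assigned to lines by these labels. However, the line means that the study lists for APX2 and APX6 match these arrays only when the names XQZ-A/MB and D62-A/MB are exchanged. Which of both cytoplasms stands behind each of these names therefore rests on the array labels.

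The deposited values are linear signal intensities. Array medians lay between 7.65 and 8.15 in replicate 1 and between 19.2 and 20.6 in replicate 2, and on each array 42.5% to 65.2% of the probes did not exceed 16. Lines were therefore compared within a replicate number. Intensities were raised to 16 where they were lower (the floor) and taken as log2, and a limma model with a term for each line and for the replicate number was fitted to the 20416 brighter probes. Calls needed both an adjusted p (Benjamini-Hochberg over all probes fitted) under 0.01 and a 2-fold change, as in the thresholds of the methods. The SE and 95% confidence interval (CI) of each log2 fold change come from this fit. The replicate term takes out the change from replicate 1 to replicate 2 that the lines share. The p-values therefore rest on the spread that remains, pooled over the lines with 2 arrays each, and not on the whole spread between the arrays of a line.

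APX1 was highest in MB and lowest in XQZ-A/MB. In MB the intensity was 469.7 in replicate 1 and 771 in replicate 2 (620.4 ± 213, SD, n = 2). The 2 arrays of ZS97-A/MB had 405 and 666 (535 ± 185, SD, n = 2), and those of D62-A/MB had 295 and 519.6 (407 ± 159, SD, n = 2). In XQZ-A/MB it was 191 and 275 (233 ± 59.3, SD, n = 2), so both arrays of this line lay below all arrays of the other lines. Replicate 2 was 1.44 to 1.76 times as bright as replicate 1, and the order MB, ZS97-A/MB, D62-A/MB, XQZ-A/MB was the same within both replicate numbers.

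APX1 fell 2.62-fold in XQZ-A/MB against MB (log2 fold change -1.39, SE 0.13, 95% CI -1.71 to -1.07, limma adjusted p = 0.0028), and this was its call. In this comparison 2.06% of the fitted probes were called, and 1.75% were called lower. Within replicates 1 and 2 the log2 ratio was -1.29 and -1.49. The call did not hold without the replicate term (adjusted p = 0.891) or when 1 array of ZS97-A/MB, XQZ-A/MB or MB was left out (adjusted p 0.0108 to 0.0621). In D62-A/MB the log2 difference of APX1 from MB was -0.62 (SE 0.13, 95% CI -0.94 to -0.30, adjusted p = 0.0574), where 0.0294% of the probes were called. In ZS97-A/MB it was -0.21 (SE 0.13, 95% CI -0.53 to 0.10, adjusted p = 0.345), which leaves room for a small difference in either direction.

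Among the CMS lines the APX1 levels were spread out as well. XQZ-A/MB stood -1.18 from ZS97-A/MB on the log2 scale (SE 0.13, 95% CI -1.49 to -0.86, adjusted p = 0.0121), which passed an adjusted p of 0.05 but not 0.01. This comparison was chosen after the values were seen, and 0.23% of the probes were called in it, 0.196% lower. At an adjusted p under 0.05 without a fold limit, 5.77% of the probes were lower in XQZ-A/MB. ZS97-A/MB lay 0.79 above the mean of the other CMS lines (SE 0.12, 95% CI 0.52 to 1.07, adjusted p = 0.0278), a comparison in which 0.0% of the probes were called. By the laxer threshold 2.91% of the probes were higher in it. The neighbours in the order did not pass the test: D62-A/MB was 0.77 above XQZ-A/MB (SE 0.13, 95% CI 0.45 to 1.09, adjusted p = 0.0961) and -0.41 from ZS97-A/MB (95% CI -0.72 to -0.09, adjusted p = 0.261). No probe was called by limma in either of these comparisons (0 and 0, or 0.0%), and 2786 and 2755 probes had an unadjusted p under 0.05.

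A further probe in APX1, which was dimmer, gave the same order of the lines within both replicate numbers. Its intensity was 252 and 427 in MB, 219.8 and 399.6 in ZS97-A/MB, 155 and 304 on the D62-A/MB arrays, and 108 and 152 in XQZ-A/MB. On this probe the log2 difference of XQZ-A/MB from MB was -1.35 (SE 0.15, adjusted p = 0.0048), which was also called. The deviations of both APX1 probes from the mean of their replicate number correlated across the 8 arrays with Pearson's r of 0.996, as a description over arrays that both probes share.

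APX2, the second cytosolic form, was also highest in MB, where its intensity was 518 in replicate 1 and 827 in replicate 2 (673 ± 219, SD, n = 2). The arrays of ZS97-A/MB had 281 and 622 (452 ± 241, SD, n = 2), and those of D62-A/MB had 231 and 510.1 (370.5 ± 197, SD, n = 2). In XQZ-A/MB it was 227 and 380.3 (304 ± 108, SD, n = 2). The order was that of APX1 in both replicate numbers, although D62-A/MB and XQZ-A/MB were close in replicate 1. The lines overlapped when the replicate number was disregarded, since replicate 2 was 1.60 to 2.21 times as bright as replicate 1.

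The study lists APX2 and APX6, but not APX1, among its differentially expressed genes. In the fit used here no comparison of APX2 was called. XQZ-A/MB came nearest, with a log2 difference from MB of -1.15 (SE 0.17, 95% CI -1.55 to -0.75, adjusted p = 0.0109), which was past 2-fold but just short of the adjusted p. With 1 added in place of the floor it was called (log2 fold change -1.15, adjusted p = 0.00865). In D62-A/MB the log2 difference was -0.93 (SE 0.17, 95% CI -1.33 to -0.53, adjusted p = 0.0394), and in ZS97-A/MB it was -0.65 (SE 0.17, 95% CI -1.05 to -0.25, adjusted p = 0.0515). Of all fitted probes 1.63% were called in ZS97-A/MB, and 0.779% were called lower. No difference of APX2 between CMS lines passed an adjusted p of 0.05. The widest was XQZ-A/MB against ZS97-A/MB at -0.51 (95% CI -0.91 to -0.11, adjusted p = 0.119), while the step from XQZ-A/MB to D62-A/MB was 0.22 (95% CI -0.18 to 0.62, adjusted p = 0.643).

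APX6 was dim on all arrays, and here the order of the CMS lines was another one. In MB its intensity was 35.4 and 37.5 (36.4 ± 1.47, SD, n = 2). In D62-A/MB it was 22.5 and 26.8 (24.7 ± 3.08, SD, n = 2), and in XQZ-A/MB 18.6 and 19.5 (19.0 ± 0.668, SD, n = 2). In ZS97-A/MB it was 10.7 and 16.7 (13.7 ± 4.25, SD, n = 2), so 1 array of this line lay below 16. All 6 CMS arrays lay below both MB arrays, which was the case for 3.78% of the fitted probes. The order MB, D62-A/MB, XQZ-A/MB, ZS97-A/MB was the same in both replicate numbers, and replicate 2 was 1.05 to 1.56 times as bright as replicate 1.

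APX6 fell 2.23-fold in ZS97-A/MB against MB, with the array at 10.7 raised to the floor (log2 fold change -1.16, SE 0.13, 95% CI -1.46 to -0.85, adjusted p = 0.0058), and this was called. With 1 added in place of the floor the log2 fold change was -1.38 (adjusted p = 0.0058). The call was lost without the replicate term (adjusted p = 0.636), after quantile normalization (log2 fold change -1.06, adjusted p = 0.0301) and without 1 array of ZS97-A/MB, XQZ-A/MB or MB (adjusted p 0.0153 to 0.0802). In XQZ-A/MB the log2 fold change was -0.94 (SE 0.13, 95% CI -1.24 to -0.63, adjusted p = 0.0089), which passed the adjusted p, as 1.83% of the probes did with a lower level, but was short of 2-fold. It passed 0.01 in none of the other settings, with an adjusted p of 0.021 with 1 added in place of the floor and of 0.012 to 0.122 without 1 array. In D62-A/MB it was -0.57 (SE 0.13, 95% CI -0.87 to -0.26, adjusted p = 0.0641). Between CMS lines no difference of APX6 passed an adjusted p of 0.05. D62-A/MB was 0.59 above ZS97-A/MB (95% CI 0.28 to 0.89, adjusted p = 0.132), and XQZ-A/MB was 0.22 above it (95% CI -0.09 to 0.52, adjusted p = 0.346). Both values are reduced by the floor, and with 1 added in its place they were 0.83 and 0.48 (adjusted p = 0.111 and 0.12). The difference of ZS97-A/MB from the average of the remaining CMS lines was -0.40 for APX6 with the floor (95% CI -0.67 to -0.14, adjusted p = 0.0973) and -0.65 with 1 added (adjusted p = 0.0589), but 0.79 for APX1 and 0.40 for APX2 (95% CI 0.05 to 0.74, adjusted p = 0.179).

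**Figure D1:**
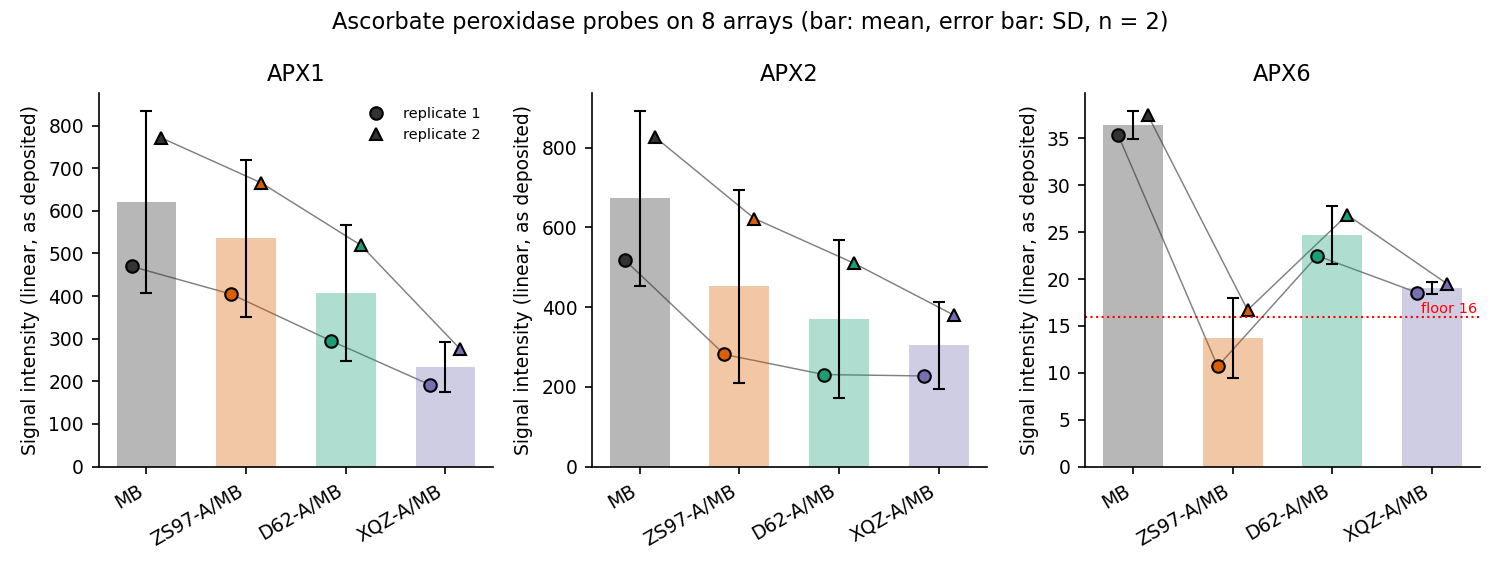
Linear signal intensity of the APX1, APX2 and APX6 probes (y axis, arbitrary units as deposited) in the 4 lines. Bars are means, error bars are the SD (n = 2), circles and triangles are the arrays of replicate 1 and 2, grey lines join arrays of a replicate number, and the dotted line in the APX6 panel is the floor of 16. MB is highest in every panel within both replicate numbers, XQZ-A/MB is lowest for APX1 and APX2, and ZS97-A/MB, at 10.7 and 16.7, is lowest for APX6.

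In the mean of the 3 CMS lines, all 3 members lay below MB, and none of them was called, since each fell short of 2-fold or of the adjusted p. In this comparison 1.8% of the probes were called, and 1.43% were called lower. The log2 difference of APX6 was -0.89 (SE 0.11, 95% CI -1.13 to -0.64, adjusted p = 0.0052), which passed the adjusted p at 1.85-fold, but not after quantile normalization (adjusted p = 0.0358), without the replicate term (0.532) or in 7 of 8 fits without 1 array (adjusted p 0.0085 to 0.0396 over the 8). A lower level at this adjusted p, with any fold, was found for 1.8% of the probes. For APX2 it was -0.91 (SE 0.14, 95% CI -1.24 to -0.58, adjusted p = 0.0115), and for APX1 it was -0.74 (SE 0.11, adjusted p = 0.0106). Within replicates 1 and 2 the log2 ratio was -0.91 and -0.86 for APX6, -1.08 and -0.74 for APX2, and -0.73 and -0.76 for APX1. Each member thus kept its direction in both replicate numbers. An adjusted p under 0.05 with a lower level was reached by 5.51% of the probes in this comparison, and by 3 of the 3 members. For the single lines this was reached by 1 of the 3 members in D62-A/MB (2.33% of the probes), 1 in ZS97-A/MB (4.48%) and all 3 members in XQZ-A/MB (5.25%).

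The same order of the 4 lines in both replicate numbers together with MB as the highest was found for each of the 3 members and for 4.6% of the fitted probes. Either condition alone was met by 15.5% of the probes for the order and 13.2% for MB. Over the 8 arrays, with the mean of its replicate number taken off each array, APX1 and APX2 correlated with Pearson's r of 0.855, APX2 and APX6 with 0.697, and APX1 and APX6 with 0.456. These r values describe 8 arrays, which share the same hybridizations and the MB arrays as the highest points, and no test was made of them.

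**Figure D2:**
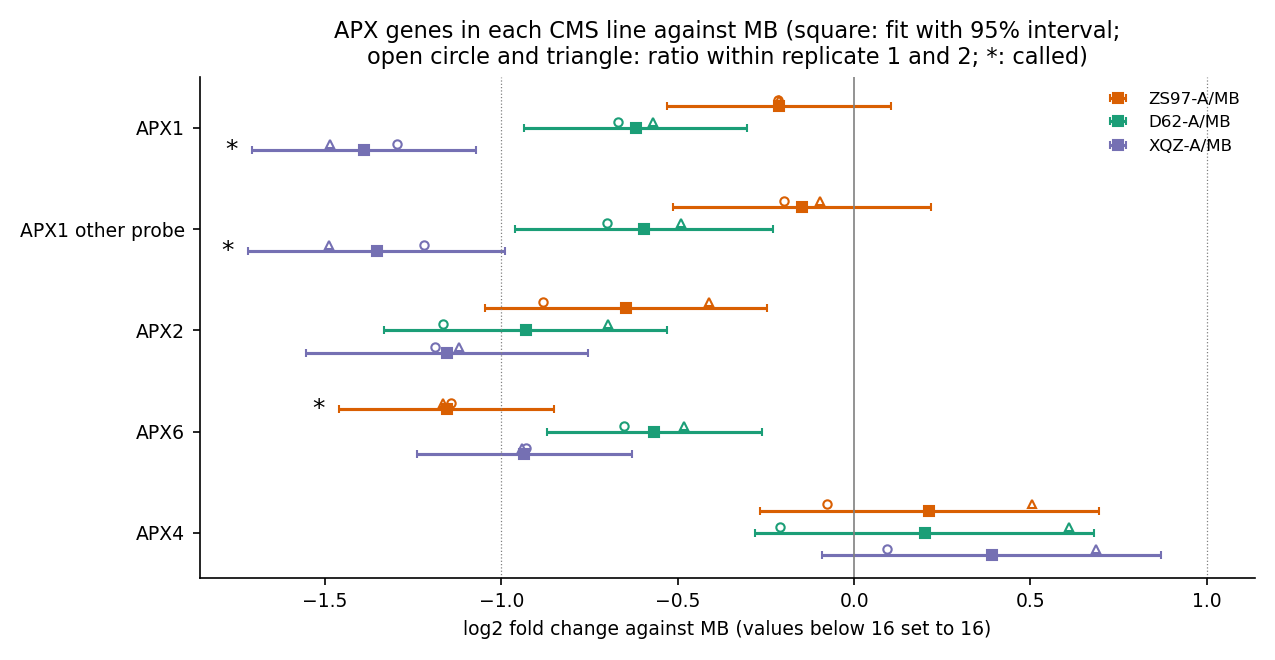
Log2 fold change of the APX genes in each CMS line against MB (x axis, values below 16 set to 16), with the gene or probe on the y axis. Squares and bars are the fitted value and its 95% CI, the open circle and triangle are the log2 ratio within replicate 1 and 2, dotted lines mark a 2-fold change, and an asterisk marks a call. XQZ-A/MB on both APX1 probes (-1.39 and -1.35) and ZS97-A/MB for APX6 (-1.16) are called. The fitted values of APX4 lie above 0 with intervals that include 0, and its ratios within replicate 1 lie below 0 for D62-A/MB and ZS97-A/MB.

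Of the other APX genes only APX4 was bright enough for the fit, and it did not share this pattern. APX4, a peroxisomal form, had an intensity of 139.6 and 163 in MB, 121 and 249 in D62-A/MB, 132 and 232 on the ZS97-A/MB arrays, and 149 and 263 in XQZ-A/MB. MB was thus the lowest line in replicate 2 but the second highest in replicate 1, and the order of the lines differed between both. The log2 difference of the mean of the CMS lines from MB was 0.27 for APX4 (SE 0.17, 95% CI -0.12 to 0.66, adjusted p = 0.375), with -0.07 within replicate 1 and 0.60 within replicate 2. APX8, a chloroplast form, lay at 5.99 to 16.3 and exceeded 16 on 1 array, replicate 2 of MB. APX5, which neighbours APX6 in the annotation, lay at 2.65 to 5.14 on all arrays. Both were too dim for the fit, which does not show that they were not expressed. For APX3 and APX7 no probe lay in that gene alone, and they were not analysed here.

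The genes around the APX reaction were described from lists of symbols, and no gene of these lists was called in any of the comparisons. Ascorbate is regenerated by monodehydroascorbate reductase, of which MDAR2 and MDAR5 were fitted, and glutathione by glutathione reductase (GR). For the average of the CMS lines, 0 of these 3 genes passed an unadjusted p of 0.05, with a median log2 difference of 0.05 against 0.01 over all fitted probes. MDAR2 was the gene of this group that differed between the CMS lines. Its intensity was 51.6 and 93.8 in ZS97-A/MB, 41.0 and 51.6 in MB, 34.2 and 54.0 in D62-A/MB, and 24.9 and 52.2 in XQZ-A/MB, so ZS97-A/MB was the highest line in both replicate numbers. It lay 0.82 above the mean of the other CMS lines (SE 0.16, adjusted p = 0.0495), and XQZ-A/MB stood -0.95 from ZS97-A/MB (SE 0.19, adjusted p = 0.0365). Neither passed 0.05 after quantile normalization (adjusted p = 0.0911 and 0.0663) or without some arrays (adjusted p up to 0.382 and 0.254). MDAR2 and APX1 were thus both highest in ZS97-A/MB among the CMS lines. Against MB, MDAR2 was 0.60 higher in ZS97-A/MB on the log2 scale, at an unadjusted limma p under 0.05, but it was not called. GR had an unadjusted p of 0.0454 in XQZ-A/MB alone (log2 difference 0.37, adjusted p = 0.216), and for MDAR5 the log2 difference of XQZ-A/MB from ZS97-A/MB was -0.37 (unadjusted p = 0.0289, adjusted p = 0.145).

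Ascorbate synthesis was represented by GME-1, the GDP-mannose epimerase, and GLDH2, the galactonolactone dehydrogenase that makes ascorbate in its last step, while GLDH1 was too dim. GME-1 had an intensity of 118 and 258 in MB, 141 and 201 in ZS97-A/MB, 93.7 and 172 on the D62-A/MB arrays, and 70.2 and 119 in XQZ-A/MB, which was the lowest line in both replicate numbers, as for APX1. The log2 difference of GME-1 in XQZ-A/MB was -0.93 from MB (SE 0.17, adjusted p = 0.0219) and -0.88 from ZS97-A/MB (SE 0.17, adjusted p = 0.0338). Without 1 array the adjusted p of these rose to as much as 0.204 and 0.26, and after quantile normalization the latter was 0.094. In the mean of the CMS lines it was -0.48 (SE 0.14, adjusted p = 0.0716), and that of GLDH2 was 0.19 (SE 0.13, adjusted p = 0.414). The catalases, which break down hydrogen peroxide without ascorbate, were fitted for the 2 genes found by symbol. CAT-A stood -0.42 from MB in the mean of the CMS lines (SE 0.16, unadjusted p = 0.033, adjusted p = 0.146) and -0.79 in XQZ-A/MB (SE 0.19, adjusted p = 0.0579), and CAT-B stood -0.04 (SE 0.14, adjusted p = 0.891).

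On the side of peroxide formation, rbohB was the only NADPH oxidase gene found by symbol. Its intensity was 24.0 and 24.6 in MB and 9.31 to 20.5 on the CMS arrays. Like 3.78% of the fitted probes, rbohB had all CMS arrays below both MB arrays. It entered the fit only through its MB arrays, since its CMS arrays averaged below the filter limit of 14.9. The filter thus favours a lower level in the CMS lines here, which the adjusted p does not allow for. The log2 difference of rbohB was -0.49 in the mean of the CMS lines (SE 0.12, adjusted p = 0.0465) and -0.60 in ZS97-A/MB (SE 0.15, adjusted p = 0.0427), with 4 of the 6 CMS arrays below the floor of 16. With 1 added in its place they were -0.81 and -0.95 (adjusted p = 0.037 and 0.0396), and without any 1 array neither passed 0.05 (lowest adjusted p 0.065 and 0.0585). The superoxide dismutase gene sodCp stood -0.10 from MB in the mean of the CMS lines (SE 0.12, adjusted p = 0.671). Of the peroxiredoxins and thioredoxins, which reduce peroxides through thiols, 14 of 15 genes with a probe were fitted. In the mean of the CMS lines 10 were above and 4 below MB with a median log2 difference of 0.07, and 0 were called. The 3 with an unadjusted p under 0.05 were Trx10 (0.36, adjusted p = 0.077), Trx19 (0.37, adjusted p = 0.0946) and Trx22 (0.29, adjusted p = 0.13), all above MB. Trx14, a thioredoxin, differed between CMS lines, with XQZ-A/MB at -0.71 from ZS97-A/MB (SE 0.13, adjusted p = 0.029, and up to 0.237 without 1 array). The lists hold only genes found by symbol or synonym and are not whole families. That of glutathione peroxidases found no gene. The catalase CATC, GGP of ascorbate synthesis, dehydroascorbate reductases and NADPH oxidases other than rbohB were also not found.

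**Figure D3:**
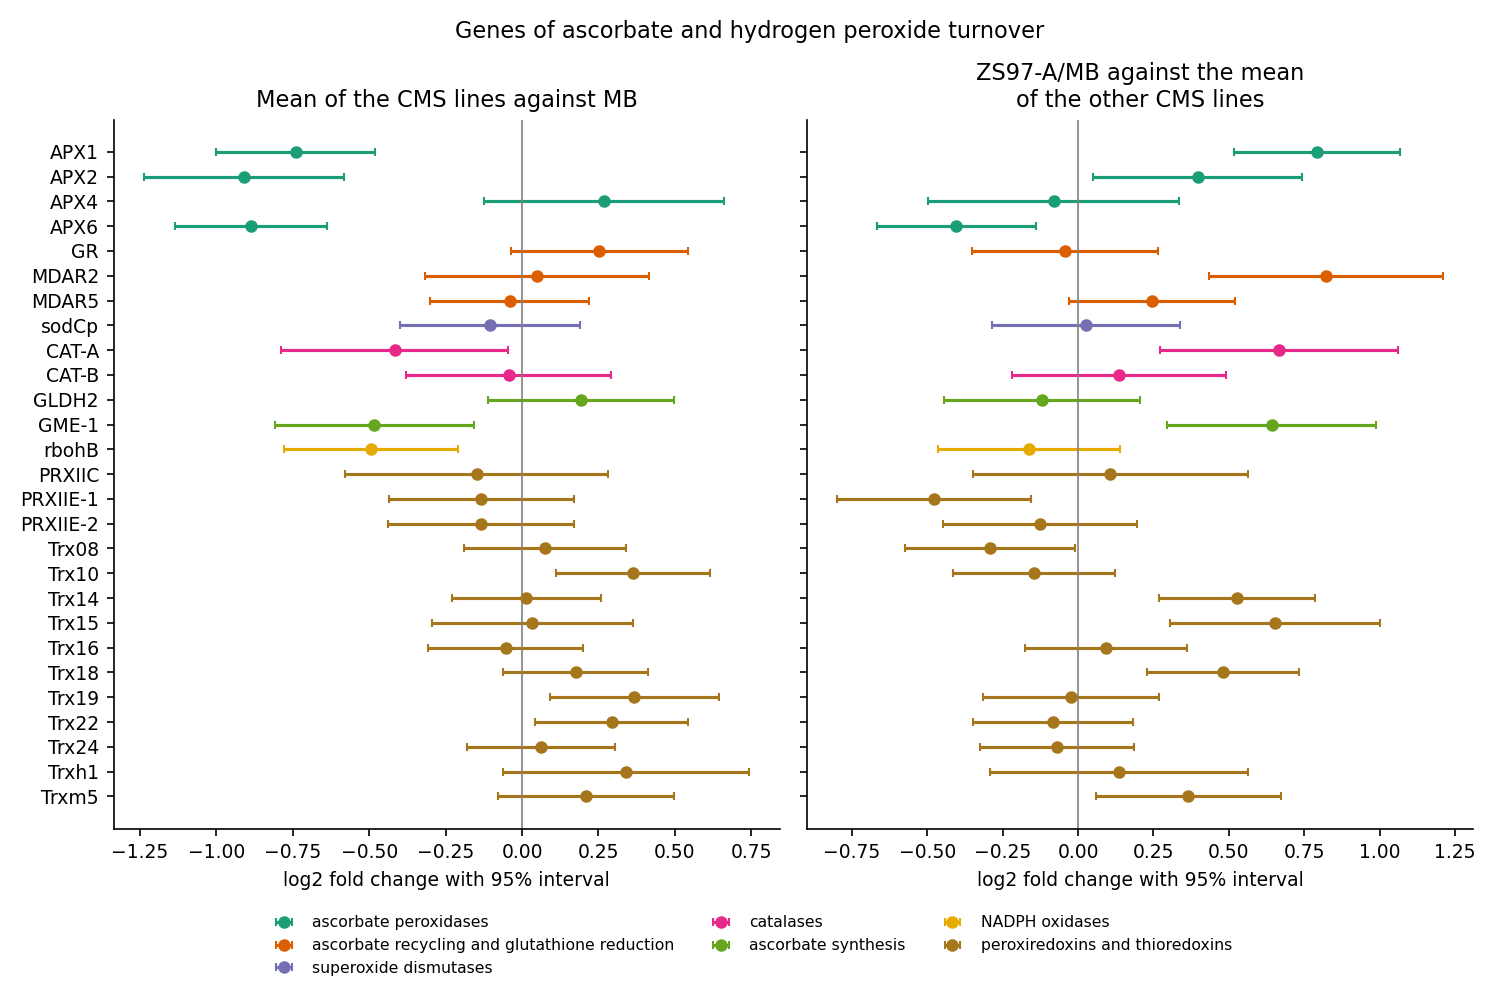
Log2 fold change with its 95% CI (x axes) of the fitted APX genes and of the genes of ascorbate and hydrogen peroxide turnover (y axis, coloured by list), for the average CMS line relative to MB (left) and for ZS97-A/MB relative to the average of the remaining CMS lines (right). On the left APX1, APX2 and APX6 lie at -0.74, -0.91 and -0.89 and the ascorbate recycling and glutathione reduction genes at -0.04 to 0.25. On the right APX1 and MDAR2 lie at 0.79 and 0.82.

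The summed markers of the tapetum, of carpel and ovule, and of green tissue lay below MB in every CMS line within both replicate numbers. Those of lemma, palea and glume did so in replicate 1, but in replicate 2 only in XQZ-A/MB. Bulk RNA cannot tell fewer cells of a type from less RNA per cell. Of 9 tapetum markers 5 had a probe, and their summed intensity in replicate 1 was 1105 in MB and 76.4 to 181 in the CMS lines, and in replicate 2 it was 3410 in MB and 173 to 403 in the CMS lines. C4 and C6, which encode tapetum lipid transfer proteins, were called in the mean of the CMS lines (log2 fold change -3.07 and -4.20, adjusted p = 0.0014 and 0.0015), while UDT1 lay below 16 on all arrays. In that comparison 1.43% of the fitted probes were called lower, and 0 were called without the replicate block. The 5 of 5 lemma, palea and glume markers were above 16 on all arrays, with sums of 679.9 in MB and 524 to 657 in the CMS lines in replicate 1, and of 819 and 772 to 1097 in replicate 2 (DL is also in the next list). Of 3 carpel and ovule markers 2 had a probe, with sums of 46.9 in MB and 25.2 to 38.6 in the CMS lines in replicate 1, and of 100.1 and 55.9 to 72.6 in replicate 2. These sums came mostly from DL, since MADS21, the other carpel and ovule marker with a probe, was dim. DL, which specifies carpels and midribs, was called lower in XQZ-A/MB against MB (log2 fold change -1.11, SE 0.14, adjusted p = 0.0063), the comparison that holds the APX1 call. There 1.75% of the fitted probes were called lower, and 0 were called without the replicate block. MADS21 went the other way from DL, with a higher intensity in XQZ-A/MB than in MB in both replicate numbers. Of the 5 lemma, palea and glume markers 3, with DL among them, lay below MB in this comparison and 2 lay above. Of 9 green tissue markers 7 had a probe, with sums of 219 in MB and 172 to 176 in the CMS lines in replicate 1, and of 639 and 468 to 509.6 in replicate 2. In the mean of the CMS lines 6 of these lay below MB and 1, PSB28, lay above. The log2 difference of PSB28 was 0.26 there and 0.42 in XQZ-A/MB, both at an unadjusted limma p under 0.05. The part of these tissues in the APX differences was not tested.

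The genes most like each member were taken from 1460 genes with a symbol, by Pearson's r over the 8 arrays on the same centred values, and such r values are high by the choice of the highest. For APX1 they were OsSUT4, a sucrose transporter (r = 0.995), ROMT-17 (r = 0.987) and EXLA2, an expansin-like protein (r = 0.978). OsSUT4 had log2 differences from MB of -0.17 in ZS97-A/MB, -0.44 in D62-A/MB and -0.89 in XQZ-A/MB, the same order as APX1 with smaller steps. For APX2 they were OSPIN10a, an auxin efflux carrier (r = 0.977), GST-II, a glutathione S-transferase (r = 0.974), and OsPP2C30, a protein phosphatase (r = 0.972). OSPIN10a stood -0.93, -1.47 and -1.76 from MB in ZS97-A/MB, D62-A/MB and XQZ-A/MB. For APX6 they were EXP5, an expansin that loosens cell walls (r = 0.982), IAA2, a repressor of auxin response (r = 0.979), and ArsM1 (r = 0.978). EXP5 stood -0.95 from MB for D62-A/MB, -1.58 for XQZ-A/MB and -1.76 for ZS97-A/MB, so ZS97-A/MB was lowest, as for APX6.

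**Figure D4:**
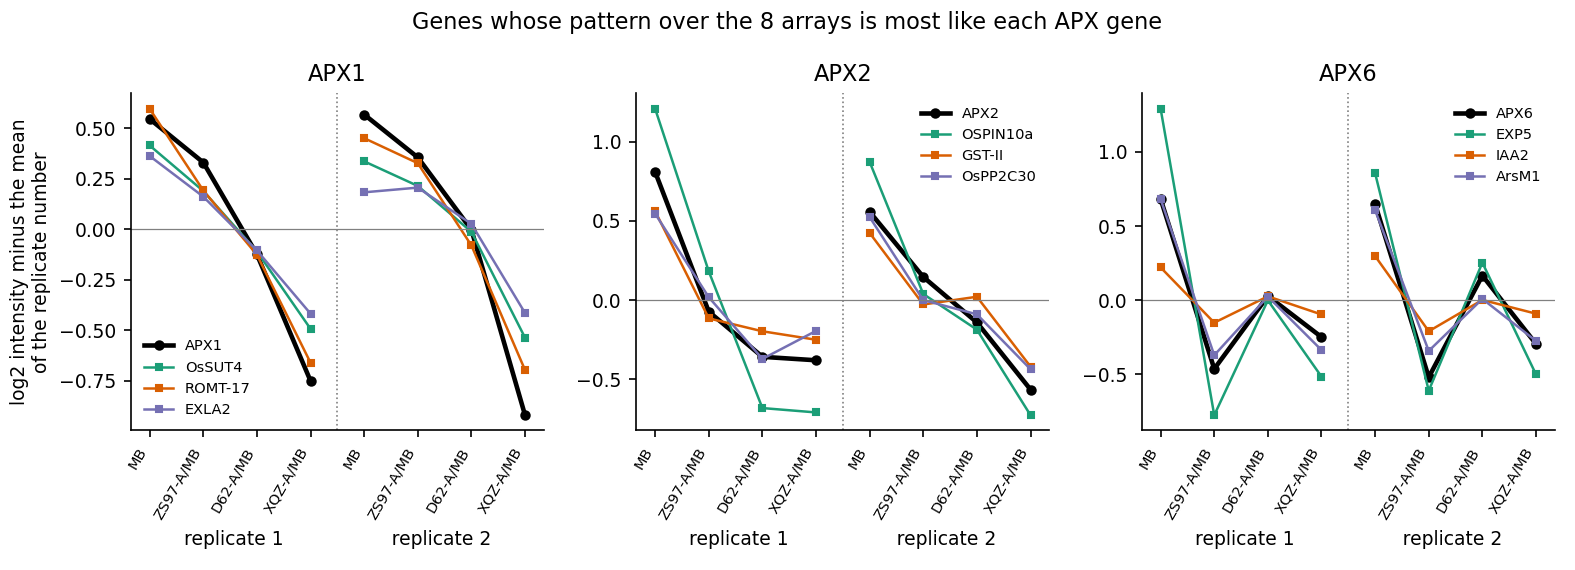
Log2 intensity (values below 16 set to 16) minus the mean of the replicate number (y axis) for APX1, APX2 and APX6 in black and for the 3 genes most like each in colour, over the 4 lines of replicate 1 and of replicate 2 (x axis); the lines join arrays only to show the pattern. The APX1 and APX2 groups descend from MB to XQZ-A/MB in most steps, and the APX6 group has its lowest point in ZS97-A/MB in both replicate numbers.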

How the data were processed

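RNA of the 4 lines was measured on 8 arrays. The deposited values are linear signal intensities made by the authors: per the labels by MAS5, whose version is not given in the sources used here, and per the methods by Robust Multichip Analysis with log transformation. A further deposited table of the same arrays was not used. Precision was limited by the number of arrays.

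Of 40832 probes, 15295 lay in 1 RefSeq gene, 436 in several and 25101 in none, and only the first were named. Intensities below 16 were set to 16 and put on the log2 scale. The fit used limma 3.58.1 in R 4.3.3 on the upper 20416 probes by mean intensity (14.9 or more), with a coefficient per line, the replicate number as a block, and empirical Bayes moderation (residual degrees of freedom 3, prior 3.96), and was tested on simulated data. Tables and figures were made in Python 3.11.15 (pandas 2.3.3, numpy 2.4.6, matplotlib 3.10.9). The replicate numbers of the labels were checked for pairing: for all 6 pairs of lines, the changes from replicate 1 to 2 correlated over the fitted probes (r between 0.728 and 0.839).

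The members, lists, settings and tests were chosen with earlier results of these data known, and D62-A/MB and XQZ-A/MB against ZS97-A/MB were added after the values were seen. Genes of the lists were found by symbol or synonym, without homonyms of another function, and named where called, at an unadjusted p under 0.05, or as partners of the APX reaction. Of the thioredoxins, those past this p only in single lines or between lines are given by count or left out, except Trx14 and Trx18. Alternatives were no replicate block, all probes, quantile normalization, 1 added in place of the floor, the methods' t-test, the other APX1 probe, an adjusted p under 0.05 without a fold limit, and leaving out each array.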

Additional observations from a re-analysis of the deposited data

Results flagged for a closer look

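The differences between CMS lines that passed an adjusted p of 0.05 in the limma fit were those below, and none of them passed 0.01. APX1 in XQZ-A/MB stood -1.18 from ZS97-A/MB on the log2 scale, and ZS97-A/MB lay 0.79 above the mean of the other CMS lines. MDAR2 stood -0.95 from ZS97-A/MB in XQZ-A/MB, and ZS97-A/MB lay 0.82 above the mean of the other CMS lines. GME-1 and Trx14 in XQZ-A/MB stood -0.88 and -0.71 from ZS97-A/MB. Each lost 0.05 without some arrays, with an adjusted p of up to 0.26 for GME-1 and 0.237 for Trx14. The comparisons share the arrays of ZS97-A/MB and XQZ-A/MB, and they depend on which of the names XQZ-A/MB and D62-A/MB is right.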

How the results depend on the processing

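The calls of the members depended on the replicate block. Without the replicate block the log2 fold change of APX1 in XQZ-A/MB was again -1.39 (adjusted p = 0.891) and that of APX6 in ZS97-A/MB -1.16 (adjusted p = 0.636), and neither was called, nor with the block on all probes (adjusted p = 0.1 and 0.0916) or in the methods' t-test without the block (adjusted p = 1.0 and 0.794). After quantile normalization APX6 in ZS97-A/MB was -1.06 (adjusted p = 0.0301). With 1 added in place of the floor, APX2 in XQZ-A/MB (-1.15) was called. Without 1 array, APX1 in XQZ-A/MB ranged from -1.50 to -1.28 and APX6 in ZS97-A/MB from -1.19 to -1.12, and both calls held only without an array of D62-A/MB. Every other comparison of the members kept its direction and gained or lost no call in these settings, but APX6 in XQZ-A/MB and in the average CMS line, which passed the adjusted p below 2-fold, mostly did not pass it in other settings.

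APX4, which was not called, changed direction without replicate 2 of MB or of D62-A/MB: its log2 difference ranged from -0.13 to 0.53 in D62-A/MB, from -0.12 to 0.55 in ZS97-A/MB and from -0.065 to 0.60 for the average CMS line.

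The number of probes called also moved in most settings. In the order D62-A/MB, ZS97-A/MB, XQZ-A/MB and average CMS line against MB, 6, 333, 421 and 367 probes were called. Without the replicate block it was 0 in each, with the block on all probes 1 in each, after quantile normalization 1, 71, 259 and 229, in the methods' t-test 0, 0, 0 and 4, and at an adjusted p under 0.05 without a fold limit 728, 2562, 1465 and 2153. With 1 added in place of the floor, 139 probes were called in D62-A/MB. Leaving out 1 array gave 0 to 148, 0 to 345, 0 to 498 and 0 to 404. For XQZ-A/MB against ZS97-A/MB, 47 became 0 without the block, on all probes and in the t-test, 2 after quantile normalization, 87 with 1 added, 1403 at the laxer threshold and 0 to 74 without 1 array. For ZS97-A/MB against the remaining CMS lines the count of 0 became 8 with 1 added, 658 at the laxer threshold and 0 to 47 without 1 array, and for D62-A/MB against XQZ-A/MB it became 1, 11 and 0 to 112.

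The APX1 differences between CMS lines lost an adjusted p of 0.05 without some arrays: it ranged from 0.0141 to 0.177 for XQZ-A/MB against ZS97-A/MB and from 0.0346 to 0.256 for ZS97-A/MB against the remaining CMS lines, which also had 0.0703 after quantile normalization. The floor reduces the differences of the dim rbohB probe from MB, and those of the dim APX6 probe that involve ZS97-A/MB.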
